A study of Mus musculus with 16 samples.

Results

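Quadriceps RNA was compared between mice that carried the C26 tumour after injection into the spleen and mice that carried it under the skin. C26 is a mouse colon carcinoma cell line, long used to study cachexia, the loss of muscle and fat in tumour-bearing animals. The libraries were chosen by their labels: 4 labelled splenic C26 and 4 labelled subcutaneous C26, which is 8 of the 16 libraries in the series. All animals were male CD2F1 mice, 8 weeks old at the start. Cells placed in the spleen can reach the liver through the portal blood, and that route stood for hepatic spread. The tumour-free group of that arm, sham, was operated on and given saline. The tumour-free group of the subcutaneous arm is labelled only control, and its handling is not given in the sources used here, nor are the number of cells injected and the number of weeks until collection. Each group held 4 libraries, and the labels do not say whether these came from separate animals, so the p-values measure the spread between these libraries, which may be technical.

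Tumour route went with the prefix of the library titles. Titles of all splenic and sham libraries begin with LN2, and those of all subcutaneous and control libraries begin with AB43. Whatever the prefix stands for and the route cannot be told apart in the direct comparison. The labels place RNA isolation and sequencing of all quadriceps tissue at the same time, and none of them calls the prefix a batch. The tumour-free pair carries the same prefixes, so the difference of sham from control is given beside the tumour comparison. Sham was operated on and the handling of control is not given, so that difference cannot separate the prefix from the operation.

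In wasting muscle, FoxO and STAT3 transcription factors switch on the ubiquitin ligases that mark sarcomere proteins for the proteasome, glucocorticoids and interleukin-6 raise the same programme, and genes of the contractile apparatus, the mitochondria and the extracellular matrix are turned down. The comparison asks which of these genes, if any, depend on where the tumour grows. A log2 fold change below is always splenic over subcutaneous, so positive values are higher in the splenic group. Levels are in CPM, a gene's count relative to the TMM-scaled total of its library, a unit that does not correct for gene length. They are compared between libraries, within a gene or as the sum over a list. In such a sum, long and abundant genes weigh most. Values per library are given in the order of replicates 1 to 4.

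The 8 tumour libraries held 25882067 to 33469885 counted reads over 13320 genes. All 9 skeletal muscle fibre markers had counts in every one of them, summing to 158900 to 198700 CPM in the splenic and 121300 to 268600 CPM in the subcutaneous libraries, while no marker of T, B and NK cells was among the measured genes (0 of 12). Both tumour groups were heterogeneous. On the first principal component of all 16 libraries, which held 65.4% of the variance, tumour-free libraries ran from -60.8 to -55.4, 6 tumour libraries from 64.6 to 93.3, and splenic replicate 1 and subcutaneous replicate 3 in between, at -6.31 and 6.003. The median over genes of the within-group SD was 0.41 on the log2 scale in the splenic and 0.31 in the subcutaneous group, against 0.15 in sham and 0.18 in control. Other libraries stood apart for markers of single cell types. The 12 neutrophil and granulocyte markers summed to 11.8, 6.54, 203 and 21.4 CPM in the splenic and 38.5, 30.0, 5.34 and 13 CPM in the subcutaneous libraries, the 5 red cell markers to 22.6, 18.7, 56.4 and 49 and 36, 13.5, 22.4 and 171 CPM, and the 8 markers of proliferating cells to 25.7, 26.8, 45.5 and 37.1 and 29.1, 31.1, 30.6 and 111 CPM. Splenic replicate 3 was highest for the first and subcutaneous replicate 4 for the other pair of lists. In bulk tissue, fewer cells of a type and less RNA per cell cannot be told apart.

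**Figure D1:**
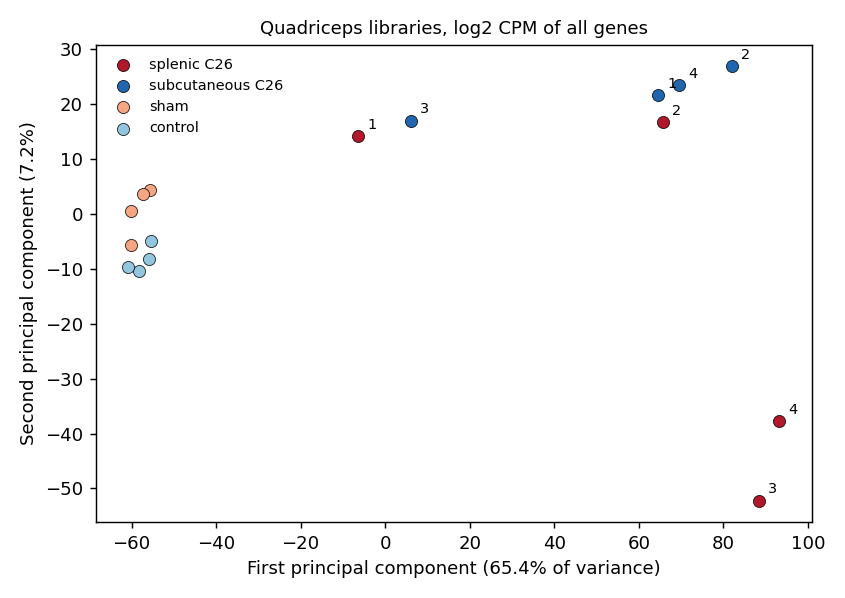
Principal components of log2 CPM over all 13320 genes, 1 point per library; the horizontal axis is the first component (65.4% of variance), the vertical axis the second (7.23%), colour is the group and digits are tumour replicates. Splenic replicate 1 (-6.31) and subcutaneous replicate 3 (6.003) lie between the tumour-free libraries and the 6 other tumour libraries, and splenic replicates 3 and 4 lie lowest on the second component.

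No gene passed an adjusted p of 0.05 between splenic and subcutaneous C26 (0 of 13320, 0%; edgeR quasi-likelihood test over all 16 libraries, smallest adjusted p 0.169). At an unadjusted p under 0.05 there were 1358 genes (10.2%), 808 higher (6.07%) and 550 lower (4.13%) in the splenic group. That split moved with the scaling and tool: 901 higher and 387 lower with upper-quartile scaling, 922 and 455 with RLE size factors, 583 and 599 with limma-voom, and 631 and 630 with limma-trend on the deposited log2 values. The 4 splenic and 4 subcutaneous values did not overlap for 263 genes (1.97%), 152 with all splenic values above (1.14%) and 111 with all below (0.833%). Differences of 2-fold or more between the fitted means were found for 546 genes (4.1%), 432 of them higher (3.24%) and 114 lower (0.856%) in splenic C26, against 220 (1.65%) between sham and control.

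The test shares 1 estimate of the spread over all 4 groups, and the tumour-free groups varied less than the tumour groups. Fitted on the 8 tumour libraries alone, edgeR called 0 of 12724 genes, with 538 (4.23%) at an unadjusted p under 0.05. In that fit the 95% interval of the fold change stayed within 2-fold in either direction for 8252 genes (64.9%), and with all 16 libraries for 9563 (71.8%); for the rest a difference above 2-fold was not bounded. limma-voom and limma-trend called 0 genes. DESeq2 called 163 (1.22%), 143 higher and 20 lower, of which 80 did not overlap between the groups and 21 of the higher ones had more of their splenic CPM in replicate 3 than in the other 3 libraries together.

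Calls also appeared when single libraries were left out of the edgeR test: 307 genes without splenic replicate 1, 244 without subcutaneous replicate 3, 115 without splenic replicate 2, 2 without splenic replicate 4 (Otud1 and Trib1, both lower) and 0 without any of the other 4. Leaving out both libraries that lay between the clusters on the first component, a choice that rests on the expression values themselves, gave 958 calls (7.19%), 591 higher (4.44%) and 367 lower (2.76%), with 954 of the 958 in the same direction as with all 8 and 461 at an unadjusted p under 0.05 there. The 6 tumour libraries kept are part of the 8, so the shared direction adds no separate support. When the same 6 libraries were fitted without the tumour-free ones, only Acot1 and Chrna2 were called (2 of 12678, 0.0158%). Values from the 6 tumour libraries below come from the fit that keeps all 8 tumour-free libraries, and none of them replaces the 8-library result.

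**Figure D2:**
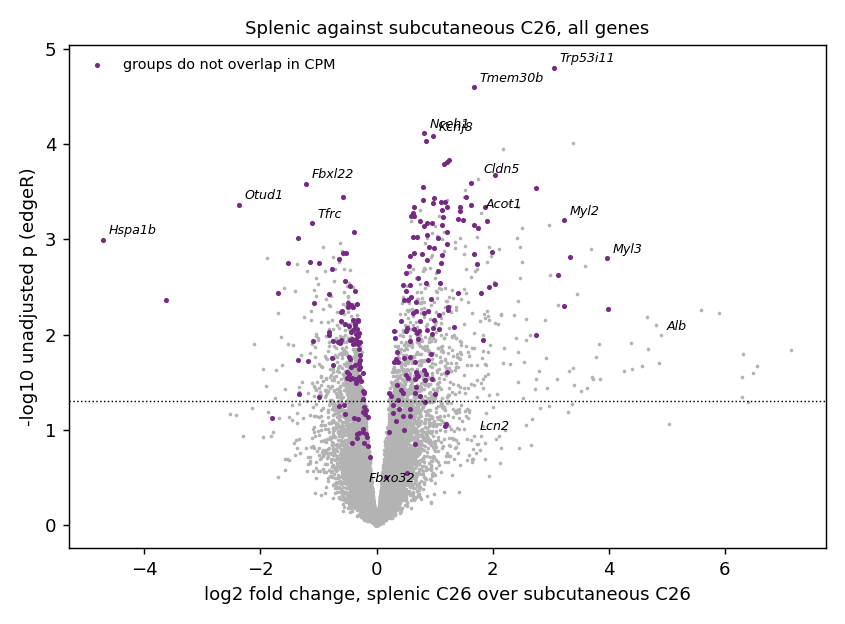
Each point is a gene: the horizontal axis is the log2 fold change of splenic over subcutaneous C26 and the vertical axis -log10 of the unadjusted edgeR p, with a dotted line at 0.05; purple points are the 263 genes whose groups do not overlap. Trp53i11 and Tmem30b have the smallest p, Hspa1b and Otud1 lie far to the left, and no point passes after adjustment (smallest adjusted p 0.169).

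The 5 genes with the smallest p in each direction did not pass. They were chosen by their p, so that their values, which did not overlap between the groups in any of the 10, are a description. Trp53i11 (chr2:93187548-93201759, mm10, protein-coding like the 9 that follow), a gene named as a p53-inducible protein, measured 9.38, 3.83, 21.9 and 37.6 CPM in the splenic and 2.134, 1.81, 2.28 and 2.44 CPM in the subcutaneous libraries. The splenic values spread widely while the subcutaneous ones sat close together, and sham and control held 8.45 ± 1.64 CPM (SD, n = 4) and 8.05 ± 1.27 CPM (SD, n = 4). This is 3.07 on the log2 scale (SE 0.49, 95% interval 2.02 to 4.12, adjusted p = 0.169). Tmem30b (chr12:73543402-73546392), a subunit of lipid flippases, measured 0.894, 0.794, 0.611 and 1.05 CPM against 0.287, 0.317, 0.207 and 0.222 CPM, a low level that rests on 90 and 30 counts in total. Nceh1 (chr3:27182965-27284608), a cholesteryl ester hydrolase, measured 30.0, 44.6, 49.2 and 35.9 against 21.2, 22.9, 23.8 and 22.4 CPM, with the subcutaneous group below every tumour-free library (40.3, 38.1, 39.9 and 46 in sham, 48.1, 34.6, 52.9 and 49.1 in control). Kcnj8 (chr6:142564837-142571614), the pore subunit of a vascular ATP-sensitive potassium channel, measured 9.48, 6.14, 8.6 and 10.1 against 3.5, 3.9, 4.93 and 5.18 CPM. For Pxdc1 (chr13:34627834-34653486) the values were 3.89, 3.14, 4.09 and 4.46 against 2.134, 2.38, 2.07 and 2.07 CPM. The log2 fold changes of these 4 were 1.67, 0.82, 0.97 and 0.85, with adjusted p between 0.169 and 0.170.

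Among the 5 on the lower side, Otud1 (chr2:19657752-19660583), a deubiquitinase, had the largest fold change. It measured 12.8, 22.5, 14.9 and 77.1 CPM in the splenic and 126, 295, 143 and 90.2 CPM in the subcutaneous libraries (log2 fold change -2.36, SE 0.53, adjusted p = 0.17). Sham (26.9, 32, 29.7 and 41.1) and control (20.7, 28.7, 10.9 and 19.4) were all below the lowest subcutaneous library, and splenic replicate 4 was the only splenic library above them. Tfrc (chr16:32608920-32632794), the transferrin receptor that brings iron into the cell, was low in both tumour groups next to sham and control (133, 140.3, 133 and 147 CPM in sham, 139, 173, 170.0 and 158 CPM in control) and lowest in the splenic one. Its values were 12.1, 6.25, 13.4 and 4.93 CPM against 17.7, 17.8, 15.7 and 28.3 CPM (-1.12 on the log2 scale, SE 0.26, adjusted p = 0.17). Fbxl22 (chr9:66508459-66514593), an F-box protein of striated muscle, measured 0.319, 0.217, 0.423 and 0.233 against 0.669, 0.73, 0.704 and 0.667 CPM, both under the tumour-free range. Slc37a3 (chr6:39334773-39377675), a sugar-phosphate transporter relative, measured 12.4, 13.5, 10.5 and 9.01 against 17.4, 19.3, 15.7 and 15.6 CPM. Phf20 (chr2:156196466-156309952), a chromatin reader, measured 46.6, 38.8, 37.8 and 40.8 against 52.6, 57.5, 53.8 and 51.6 CPM and showed the smallest difference of the 10, -0.39 on the log2 scale.

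Genes of muscle breakdown were at similar mean levels after both routes, with intervals that still allow sizeable differences. Fbxo32, the ubiquitin ligase atrogin-1 and a standard readout of atrophy, measured 3604, 7030, 4179 and 6130 CPM in the splenic and 6357, 7013, 3168 and 8070 CPM in the subcutaneous libraries, against 377, 318, 389.6 and 412 CPM in sham and 497, 452, 482 and 340.1 CPM in control. In both groups the lowest value belonged to the library nearest the tumour-free cluster, splenic replicate 1 and subcutaneous replicate 3. The log2 fold change was -0.23 (95% interval -0.80 to 0.34 with all 16 libraries, -0.98 to 0.52 with the 8 tumour libraries). Trim63, the partner ligase MuRF1, measured 2293, 4751, 7171 and 8341 against 5089, 5337, 2105 and 6798 CPM, with a log2 fold change of 0.22 (8-library interval -0.77 to 1.22). Of 27 listed ubiquitin ligases and genes linked to FoxO, 1 was higher and 1 lower at an unadjusted p under 0.05 (background 6.07% and 4.13%), and their median was -0.07, beside -0.01 over all 13320 genes. The 31 proteasome subunits were nearly all on the splenic side, 30 of 31, by little (median 0.20, 1 at an unadjusted p under 0.05), and 5 were called in the 6 libraries (background 4.44%). Among these, the catalytic subunit gene Psmb5 measured 23.6, 37.6, 44.4 and 48.6 against 26.3, 29.9, 25.4 and 30.9 CPM, and Psmb3 74.6, 146, 190.4 and 187 against 117, 128, 90.7 and 128 CPM, where splenic replicate 1 was the lowest of all 8.

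**Figure D3:**
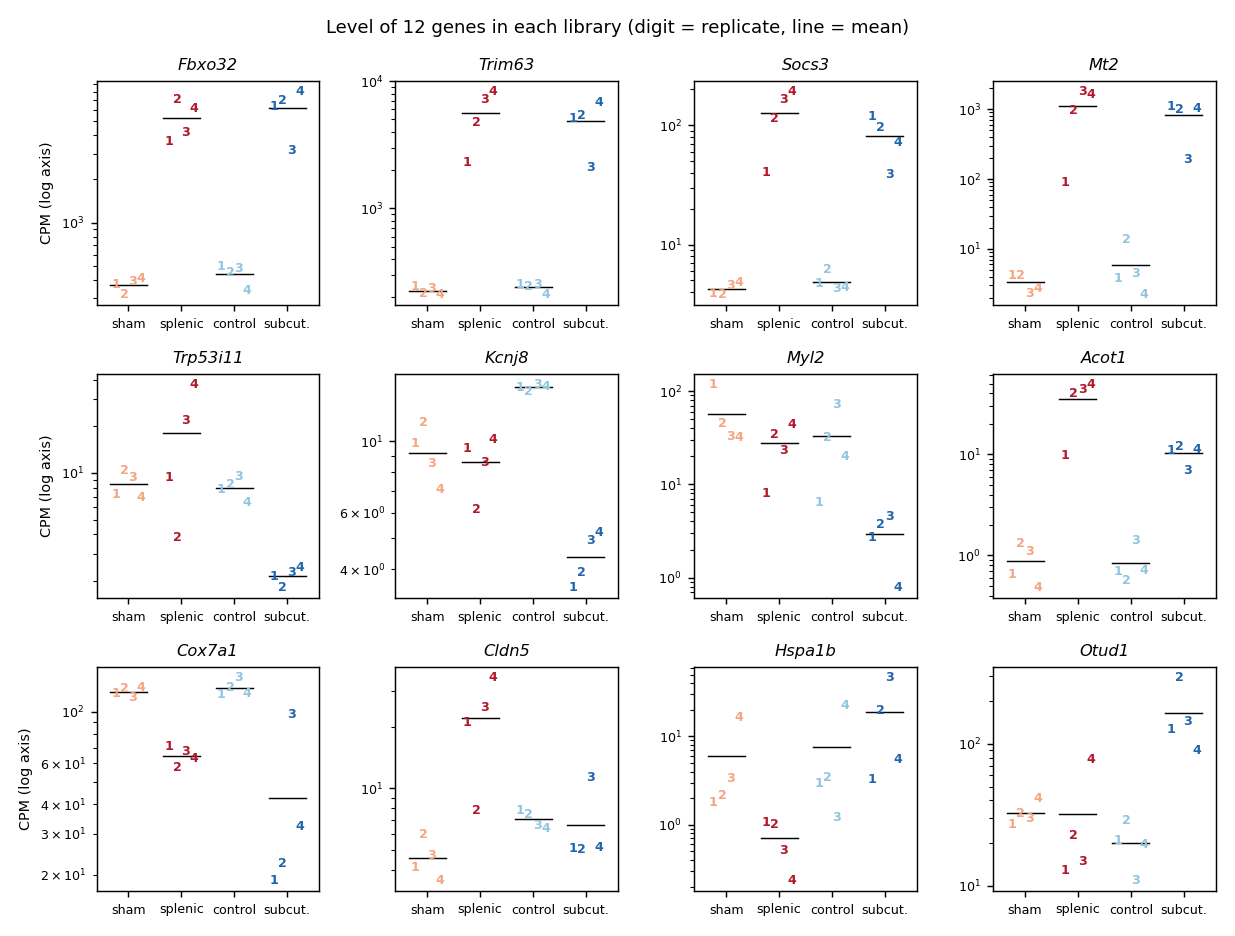
CPM on log axes for 12 genes in all 16 libraries, grouped as sham, splenic C26, control and subcutaneous C26; each digit is a replicate and each line a group mean. Fbxo32 and Trim63 overlap between the tumour groups, Trp53i11, Kcnj8, Myl2, Hspa1b and Otud1 do not, and Cox7a1 is low in subcutaneous replicates 1, 2 and 4 but not in replicate 3.

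All 20 interleukin-6 and STAT3 genes and all 17 glucocorticoid-induced genes overlapped between the groups, as did 16 of 17 genes of metallothionein, zinc and iron handling; the other one was Tfrc. Socs3, the feedback inhibitor induced by STAT3, measured 40.0, 113, 164 and 192 CPM against 119, 95.8, 38.6 and 72 CPM (log2 fold change 0.65, 8-library interval -0.40 to 1.70). For Il6ra, the interleukin-6 receptor, the values were 74.9, 136, 169 and 119.8 against 143, 151, 52.8 and 142 CPM, a difference of 0.03 with an interval of -0.74 to 0.80. The shared receptor chain Il6st was lower by a small margin in the splenic group, 384, 419, 346 and 367 against 477, 512, 384 and 516 CPM (-0.32, adjusted p = 0.394; -0.41, adjusted p = 0.0312, in the 6 libraries). Junb, an AP-1 factor of the same list, measured 64.2, 156, 211 and 312 against 131, 103, 45.4 and 139 CPM. Of the 20 interleukin-6 and STAT3 genes, 2 were higher and 2 lower at an unadjusted p under 0.05 (background 6.07% and 4.13%). Fkbp5, a glucocorticoid receptor target, measured 216, 482, 790.4 and 772 against 478, 483, 273 and 444 CPM, and the 17 glucocorticoid-induced genes had a median of 0.27. Mt2, a zinc-binding metallothionein, measured 87.9, 965, 1805 and 1606 against 1085, 988, 190.3 and 1007 CPM, so that 1 library of each group, splenic replicate 1 and subcutaneous replicate 3, stood far below the other 3. Lcn2, the neutrophil and acute-phase protein lipocalin-2, measured 15.5, 262, 2318 and 620.3 CPM against 416, 374, 20.9 and 190.2 CPM (log2 fold change 1.68, 8-library interval -0.99 to 4.36). Its highest value fell in splenic replicate 3, which was also the highest for neutrophil and granulocyte markers; what part these cells have in the Lcn2 value was not tested.

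Of the contractile genes of slow fibres, 13 of 15 had a higher mean in splenic C26, and 0 passed. Quadriceps is mostly fast muscle, and the slow isoforms come from its oxidative fibres or from slow muscle beside it. Among the 15, 10 were higher in splenic C26 at an unadjusted p under 0.05 (background 6.07%), 7 with no overlap between the groups (background 1.14%), and 0 were lower; the median was 1.91. Over the whole list, splenic replicate 1 lay within the subcutaneous range: the list's mean level over the tumour-free mean was -1.24, 0.75, 0.12 and 0.90 on the log2 scale in the splenic and -1.25, -1.03, -1.29 and -2.84 in the subcutaneous libraries, and its summed level was 1405, 4005, 3107 and 4093 against 2336, 2621, 2549 and 1606 CPM, lowest in splenic replicate 1. Myl2, the slow regulatory light chain, measured 7.98, 34.7, 23.2 and 44.5 CPM in the splenic and 2.71, 3.75, 4.51 and 0.778 CPM in the subcutaneous libraries. Myl3, the slow essential light chain, measured 10.02, 46, 28.1 and 56.4 against 1.69, 3.43, 3.77 and 0.0741 CPM. For Myh7, the slow myosin heavy chain, the values were 22.6, 147, 62.4 and 222 against 11.2, 10.8, 5.96 and 0.481 CPM. In all of these splenic replicate 1 was the lowest splenic library and subcutaneous replicate 4 the lowest of the 8, and the log2 fold changes were 3.23 (SE 0.75), 3.97 (SE 1.03) and 3.99 (SE 1.23), with adjusted p of 0.17, 0.196 and 0.29. Tnnt1, Tnnc1, Tnni1 and Tpm3, the slow troponins and a slow tropomyosin, did not overlap either. DESeq2 called 6 of the 15, all higher (background 1.07%).

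The same slow-fibre genes also varied among tumour-free libraries. Myl2 measured 119, 45.5, 32.9 and 31.6 CPM in sham and 6.38, 32.2, 72.6 and 20.1 CPM in control. The list's median between sham and control was 0.72, in the same direction and with the same title prefixes. The list's difference between the tumour effects of the 2 arms had a median of 1.22, with 2 of 15 genes at an unadjusted p under 0.05 (background 6.39%) and 0 called. How much slow muscle each sample held was not tested. Ankrd2, a stretch-responsive sarcomere protein rich in slow fibres, measured 28.1, 422, 1056 and 1049 against 218, 270.5, 69.5 and 120.2 CPM, where splenic replicate 1 was below all 4 subcutaneous libraries and splenic replicates 2 to 4 above them.

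The fast-fibre genes that reached an unadjusted p under 0.05 were 2 myosin heavy chains of the 16 genes listed, both higher in splenic C26 (background 6.07%). Myh2, the heavy chain of oxidative fast fibres, measured 643, 2370, 838 and 1554 CPM against 499, 575, 877 and 388 CPM (1.21, adjusted p = 0.277; 1.70, adjusted p = 0.0122, in the 6 libraries), and Myh1, a chain of faster fibres, 4287, 14220, 7578 and 11390 against 5259, 5617, 6242 and 4596 CPM (0.79, adjusted p = 0.348). Splenic replicate 2 was the highest of the 8 for both. The median of the list was 0.00 with all 8 libraries and 0.48 in the 6, where all 16 genes had a higher splenic mean and 4 were called (background 4.44%). The list's mean level stood at -0.40, -0.54, -0.39 and -0.73 in the splenic and -1.32, -1.16, 0.31 and -0.91 in the subcutaneous libraries, so that subcutaneous replicate 3 lay above all splenic libraries and the other 3 below them. At an unadjusted p under 0.05, 0 of 19 sarcomere scaffold genes and 1 of 21 calcium-handling and channel genes were lower (background 4.13%). By mean, 12 and 16 of them were lower, with list medians of -0.08 and -0.10.

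Genes of oxidative metabolism were shifted slightly towards the splenic group with all 8 libraries and further in 6 of them. In all 8, the 36 complex I genes were all on the splenic side with a median of 0.20 and 0 at an unadjusted p under 0.05, the 40 genes of complexes II to V and cytochrome c likewise with 0.28 and 2, and the 15 citric acid cycle genes with 0.17 and 1. Over all genes, 6.07% were higher at that threshold. Without splenic replicate 1 and subcutaneous replicate 3, 35 of 36, 38 of 40 and 14 of 15 were called higher (background 4.44%), with medians of 0.51, 0.63 and 0.56 beside 0.00 for all genes. Relative to the tumour-free mean, complex I genes stood at -0.53, -0.35, -0.24 and -0.47 on the log2 scale in the splenic libraries and at -0.95, -0.85, 0.02 and -0.83 in the subcutaneous ones. Subcutaneous replicate 3 was at the tumour-free level and the other 3 subcutaneous libraries were the lowest of the 8, with the splenic libraries in between. The omission, chosen from the expression values, thus takes out the library that ran against this order, and the calls in the 6 are only a description. When the 6 were fitted without the tumour-free libraries, only Acot1 and Chrna2 were called, and neither is in these lists. Sham and control differed by a median of -0.06 for this list.

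Apart from Ppargc1a, the genes named next were chosen from these lists by their small p in the 6 libraries. They illustrate the order of the lists and add no support to it. Cox7a1, the muscle form of a cytochrome oxidase subunit, measured 70.9, 57.6, 67.2 and 63 CPM in the splenic and 18.9, 22.4, 97.3 and 32.2 CPM in the subcutaneous libraries, so the 4 splenic values fell between subcutaneous replicate 3 and the other 3. The difference was 0.60 on the log2 scale (SE 0.37, adjusted p = 0.604), and 1.35 (adjusted p = 0.00155) in the 6 libraries. Atp5k, a small subunit of ATP synthase, measured 64.4, 67.8, 75.3 and 73.2 against 41, 39.5, 101 and 46.7 CPM. The NADH dehydrogenase subunits Ndufv1 (229, 279, 275 and 245 against 148, 167, 326 and 169.5 CPM) and Ndufb9 (183, 208, 213 and 195 against 129, 135, 260.1 and 136 CPM) followed it. Among cycle enzymes, the isocitrate dehydrogenase subunit Idh3b measured 289, 412, 408 and 392 against 230.1, 262, 436 and 252 CPM and Idh3g 265, 321, 337 and 314 against 175, 210.4, 375 and 219.7 CPM. Ppargc1a, the coactivator PGC-1alpha that drives mitochondrial genes, did not follow this order: it measured 47.7, 54.4, 638 and 59.9 against 62.9, 74.5, 141 and 175 CPM, and its log2 fold change of 0.82 rests on splenic replicate 3, without which it was -1.07.

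Because the respiratory genes were ordered alike across libraries, the promoter of Atp5k is printed as an example, from 250 bases before to 50 after the annotated start (RefSeq, GRCm38.p6, chr5:108434350-108434649, minus strand), 5′ to 3′. Capitals mark matches, on either strand, to the core GCATGCGC of nuclear respiratory factor 1, of which 2 overlap here, and to the half-site AAGGTCA of oestrogen-related receptors.
Atp5k promoter: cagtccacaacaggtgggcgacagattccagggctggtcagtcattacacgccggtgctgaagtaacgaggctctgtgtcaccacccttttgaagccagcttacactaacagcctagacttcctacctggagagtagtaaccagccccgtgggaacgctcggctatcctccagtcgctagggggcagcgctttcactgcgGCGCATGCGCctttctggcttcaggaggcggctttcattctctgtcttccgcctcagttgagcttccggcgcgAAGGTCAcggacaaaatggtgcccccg
The NRF1 core stood in the promoters of 7 of 30 genes of complexes II to V and cytochrome c (23.3%) and of 3 of 32 complex I genes (9.38%), beside 5.73% of the 10122 measured genes with a promoter and 2.71% of all 32851 promoters in the table. The half-site stood in 5 of 30 (16.7%) and 2 of 32 (6.25%), beside 4.01% and 4.72%. Of the 76 measured genes of both lists, 62 had a promoter in the table. A match describes these letters and is not a bound site.

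Genes of fatty acid uptake and oxidation were mostly at higher mean levels in the splenic libraries. Of the 22 genes of uptake, thioesterases and PPAR targets, 21 were on that side and 8 reached an unadjusted p under 0.05 (background 6.07%), with a list median of 0.42 and of -0.02 between sham and control. Acot1, a cytosolic acyl-CoA thioesterase, measured 9.67, 39.5, 43.4 and 49.3 CPM in the splenic and 10.8, 12, 6.88 and 11.1 CPM in the subcutaneous libraries, against 0.649, 1.3, 1.1 and 0.48 CPM in sham and 0.692, 0.562, 1.42 and 0.712 CPM in control. Splenic replicates 2 to 4 were more than 3 times every subcutaneous value, and splenic replicate 1 was within the subcutaneous range. The log2 fold change was 1.79 (SE 0.41, adjusted p = 0.17), and it was the gene with the smallest p when the 6 tumour libraries were fitted alone (adjusted p = 0.00698). Acot2, its mitochondrial paralogue, measured 76.6, 153, 206 and 143 against 75, 96.7, 65.1 and 102 CPM; the 2 genes are near-identical copies, so reads may have been split between them. Plin5, a lipid droplet protein of oxidative tissue, measured 39.4, 67.5, 171 and 86.9 against 33.4, 35.8, 42.7 and 30.9 CPM (1.35, adjusted p = 0.192). Fabp3, the muscle fatty acid carrier, measured 379, 527, 623 and 388 against 168, 209, 408 and 169.7 CPM (1.01, adjusted p = 0.231). Lpl, the lipase that releases fatty acids at the vessel wall, measured 969.7, 2526, 1609 and 2915 against 1321, 1216, 1126 and 1164 CPM.

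Of the 20 genes of fatty acid oxidation, all were on the splenic side, 6 at an unadjusted p under 0.05 (background 6.07%) and 15 called in the 6 libraries (background 4.44%), with medians of 0.38 and 0.67. Slc25a20, the carnitine-acylcarnitine carrier of the inner membrane, measured 83, 103, 121 and 95.8 against 58.6, 68.4, 86.2 and 58.1 CPM (0.57, adjusted p = 0.313). Acads, the short-chain acyl-CoA dehydrogenase, measured 59.5, 83.9, 78.3 and 62.8 against 36.6, 40.0, 85.2 and 40.3 CPM, with subcutaneous replicate 3 above all the others. Eci2, an enoyl-CoA isomerase, measured 87.3, 161, 178 and 170.3 against 105, 112, 117 and 104 CPM, and here splenic replicate 1 was the lowest of the 8. Pdk4, which closes the pyruvate dehydrogenase gate when fat is burned, overlapped throughout, 3368, 8382, 6256 and 8987 against 5776, 6458, 3103 and 7099 CPM (0.27, 8-library interval -0.54 to 1.07). Around glucose, Txnip, an inhibitor of glucose uptake, measured 983, 855, 1198 and 2079 against 509, 334, 834 and 766 CPM with no overlap (1.07, adjusted p = 0.213), and Ldhb, the heart-type lactate dehydrogenase subunit, 72.7, 108, 80.2 and 73.6 against 28.6, 32.3, 88.1 and 33.6 CPM. Got1, the cytosolic aspartate aminotransferase, measured 246, 348, 1162 and 596 against 149, 192, 261 and 268 CPM (1.43, adjusted p = 0.178), with the highest value in splenic replicate 3.

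**Figure D4:**
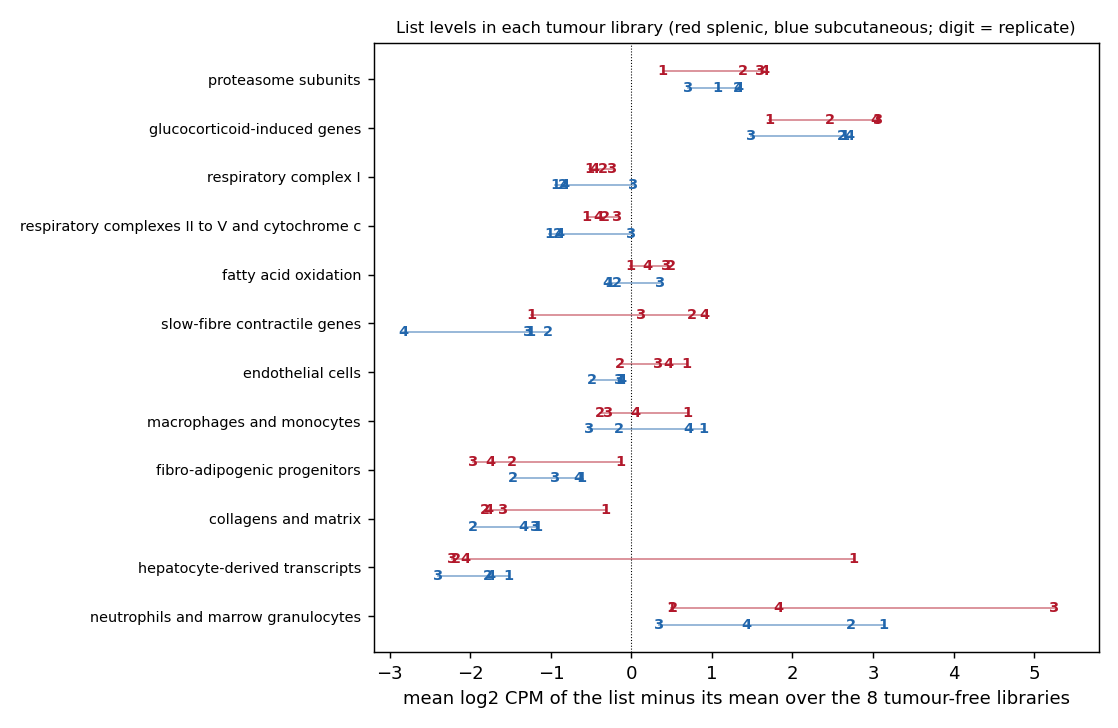
Mean log2 CPM of 12 gene lists in each tumour library, set against the list's mean over the 8 tumour-free libraries (horizontal axis); red digits are splenic and blue digits subcutaneous replicates, and lines span each group. For complex I, subcutaneous replicates 1, 2 and 4 lie at -0.95 to -0.83 and replicate 3 at 0.02, with the splenic libraries in between; the hepatocyte list is high only in splenic replicate 1 (2.75) and the neutrophil list highest in splenic replicate 3 (5.25).

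With all 8 libraries, all 11 genes of endothelial cells had a higher mean in splenic C26, and 0 passed. Of these, 9 were at an unadjusted p under 0.05 (background 6.07%), with a median of 0.49 and, between sham and control, of -0.19. Cldn5, the tight junction protein of the endothelium, measured 21.1, 7.76, 24.8 and 35.1 CPM against 5.1, 5.05, 11.3 and 5.15 CPM (1.74, SE 0.37, adjusted p = 0.17). Its one overlap was between splenic replicate 2 and subcutaneous replicate 3. Cdh5, the junctional cadherin of these cells, measured 124, 63.4, 114 and 99.2 against 61.9, 47.9, 65.8 and 61.9 CPM, Egfl7, a secreted endothelial factor, 23.6, 15.7, 18.8 and 24.1 against 13.7, 11.3, 15 and 14.6 CPM, and Pecam1, a surface adhesion molecule, 122, 68.3, 74.7 and 87.1 against 71.3, 53.1, 68.7 and 68.8 CPM. Egfl7 and Esam did not overlap between the groups. The list summed to 589.8, 332, 474 and 481 CPM in the splenic and 350.1, 263, 328 and 346 CPM in the subcutaneous libraries. DESeq2 called 5 of the 11, all higher (background 1.07%), and 3 were called in the 6 libraries (background 4.44%). In the 6 the median was 0.47 and the values ran from -0.38 to 2.145, so not all 11 stayed on the splenic side. What part the number of endothelial cells has in these differences was not tested. Of the 10 pericyte and smooth muscle markers, 3 were higher and 1 lower at an unadjusted p under 0.05 (background 6.07% and 4.13%). Besides Kcnj8 and Notch3, a receptor of vascular smooth muscle (0.53), Pdgfrb, the pericyte growth factor receptor, measured 32, 19.2, 25.9 and 26.6 against 16.7, 12.4, 18.3 and 19.1 CPM with no overlap (0.64, adjusted p = 0.193). The lower one was Cnn1, the smooth muscle protein calponin, 0.606, 0.181, 0.282 and 0.0776 against 0.796, 0.381, 1.03 and 0.481 CPM (-1.18, adjusted p = 0.466), the largest difference of the list.

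Among the 111 genes whose splenic values were all below the subcutaneous ones, the pair with the largest fold changes were inducible heat shock genes. These chaperones are switched on by heat shock factor 1 when proteins misfold. Hspa1b measured 1.05, 1.01, 0.517 and 0.233 CPM in the splenic and 3.28, 19.8, 46.8 and 5.52 CPM in the subcutaneous libraries (log2 fold change -4.71, SE 1.16, adjusted p = 0.178). The subcutaneous values were far apart among themselves, and sham (1.78, 2.16, 3.35 and 16.5) and control (2.9, 3.4, 1.2 and 22.6) each held 1 library above the rest. Hspa1a, the near-identical neighbouring copy with which reads can be shared, measured 2.39, 3.29, 0.705 and 1.24 against 5.38, 21.3, 57.8 and 10.9 CPM. Dnajb1, a co-chaperone, measured 12.5, 6.9, 9.54 and 11.3 against 16.2, 42.8, 25.1 and 11.7 CPM. Of the 16 heat shock genes 4 were lower (background 4.13%) and 1 higher (background 6.07%) at an unadjusted p under 0.05. The higher one was the small heat shock protein Hspb8, 366, 346, 1518 and 1315 against 334, 440.4, 532 and 514 CPM, where splenic replicates 3 and 4 alone were high.
The promoter of Hspa1b is printed because its groups were so far apart (RefSeq, GRCm38.p6, chr17:34959189-34959488, minus strand); capitals mark the match to the heat shock element GAANNTTC, which reads the same on both strands.
Hspa1b promoter: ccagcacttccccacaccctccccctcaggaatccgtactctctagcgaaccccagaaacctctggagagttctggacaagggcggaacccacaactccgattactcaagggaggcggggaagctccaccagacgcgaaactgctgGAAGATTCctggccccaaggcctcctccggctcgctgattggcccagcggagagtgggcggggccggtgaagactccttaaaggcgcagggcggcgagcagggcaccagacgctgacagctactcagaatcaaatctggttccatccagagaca
Such a match stood in 9 of the 11 heat shock genes with a promoter in the table (81.8%), in 7.07% of the measured genes and in 7.86% of all promoters.

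Of the 28 genes of the myostatin, activin and TGF-beta list, 7 were higher at an unadjusted p under 0.05 (background 6.07%) and 0 lower, with a median of 0.26; in the 6 libraries the median was 0.08 and 1 was called. Mstn itself, the muscle growth inhibitor, overlapped: 122, 80.8, 229 and 196 against 138, 134, 167 and 150.1 CPM (0.09, 8-library interval -0.57 to 0.76). Inhbb, which encodes an activin chain, measured 7.95, 5.85, 43.6 and 42.9 against 10.03, 6.19, 3.69 and 6.33 CPM, high in splenic replicates 3 and 4 only. Id3 and Smad7, both targets of the pathway, did not overlap between groups: Id3 measured 14.8, 8.41, 7.19 and 9.16 against 5.61, 4.16, 6.09 and 4.63 CPM (0.95, adjusted p = 0.17). Smad7, an inhibitor of the pathway, measured 14.4, 10.04, 55 and 13.2 against 9.84, 9.81, 6.96 and 8.07 CPM, and 1 library, splenic replicate 3, carried most of its difference. On the insulin side, Akt2, the kinase of glucose uptake, was lower with no overlap, 296, 348, 359.5 and 220.0 against 509, 584, 366 and 463 CPM (-0.65, adjusted p = 0.197), and Irs1, the receptor substrate, measured 67.7, 29.1, 15 and 13.4 against 47.5, 43.27, 133 and 47.1 CPM. Of the 26 insulin and mTOR genes, 1 was higher and 2 lower at an unadjusted p under 0.05 (background 6.07% and 4.13%).

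Splenic replicate 3 was the highest library for several genes. Apart from Myog, the genes named here were chosen as some of the largest rises in the 6 libraries, which include this one. Their values are only a description. Myog, a myogenic factor that is induced when muscle loses its nerve, measured 15.5, 11.9, 166 and 25.9 against 12.4, 18.7, 9.11 and 8.96 CPM. Of the 18 denervation genes, 4 were higher and 2 lower at an unadjusted p under 0.05 (background 6.07% and 4.13%). Alpl, an alkaline phosphatase, measured 7.05, 8.05, 324 and 23.6 against 6.02, 4.83, 12.3 and 6.85 CPM, and Fscn2, an actin-bundling protein, 1.72, 1.84, 62.9 and 5.4 against 0.86, 0.349, 3.77 and 1.63 CPM. Odf3l2 measured 27.7, 5.31, 272 and 19.8 against 2.48, 1.43, 42.1 and 3.19 CPM, and Adamtsl2, a matrix protein, 1.69, 1.34, 34.1 and 2.45 against 0.924, 0.571, 1.2 and 1.19 CPM. In each of these 5 genes replicate 3 held more CPM than the other 3 splenic libraries together; without it the log2 fold change of Alpl went from 3.598 to 0.78 and that of Fscn2 from 3.46 to 0.87. Sv2b, a synaptic vesicle protein, and Gdf5, a BMP-family ligand, were high in more than 1 library. Sv2b measured 0.798, 4.04, 7.76 and 8.97 against 0.955, 0.571, 0.207 and 0.259 CPM (3.39, adjusted p = 0.17), and Gdf5 0.192, 0.903, 8.84 and 8.35 against 0.605, 0.603, 0.248 and 0.593 CPM.

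Transcripts of other tissues differed through single libraries. Of 14 hepatocyte-derived transcripts, 12 were higher in splenic C26 at an unadjusted p under 0.05 (background 6.07%) and 1 lower (background 4.13%). The list median was 4.05, and 12 of the 12 higher ones were highest in splenic replicate 1. The other 2, Trf and Cyp2e1, which other tissues also express, held most of the list's summed CPM (334, 115, 146 and 365 against 418, 341, 207 and 252). Both were lower in the splenic group by mean, 1 of them at an unadjusted p under 0.05. Alb, liver albumin, measured 76.2, 0.0722, 0.611 and 0.0388 CPM in the splenic and 0.637, 0.889, 0.663 and 0.37 CPM in the subcutaneous libraries. Control libraries held much more than sham (16.5, 67.7, 24.6 and 127 CPM) against 0.239, 2.25, 0.375 and 0.24 CPM). Without splenic replicate 1 its log2 fold change went from 4.90 to -1.52. Whether liver RNA reached these samples was not tested. Nmrk2, a nicotinamide riboside kinase of muscle, showed the reverse case, 5.81, 2.02, 12.4 and 1.75 against 2.83, 1.91, 49.8 and 2.148 CPM: its -1.37 rests on subcutaneous replicate 3, and without that library it was 1.24.

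Resident macrophage genes overlapped between the groups with all 8 libraries, and some were called lower in splenic C26 in 6 of them. The 13 macrophage genes had a median of -0.37, with 1 higher and 0 lower at an unadjusted p under 0.05 (background 6.07% and 4.13%). In the 6 libraries their median was -1.09, and 3 were called lower (background 2.76%). Mrc1, the mannose receptor of resident macrophages, measured 55.5, 24.7, 15.6 and 22.5 CPM against 69.2, 26.4, 20.8 and 64.1 CPM (-0.61; -1.35, adjusted p = 0.0253, in the 6 libraries). Adgre1, which encodes F4/80, measured 6.09, 1.99, 0.517 and 1.63 against 5.83, 3.11, 1.91 and 5.18 CPM. In both genes splenic replicate 1 stood with the highest subcutaneous libraries, replicates 1 and 4. The lectin genes Cd209a, Cd209b, Cd209d and Cd209e are closely related neighbours on chromosome 8 whose reads may be shared. They were chosen as some of the largest falls in the 6 libraries, so their values there are only a description. Their log2 fold changes were -2.12, -1.96, -2.38 and -2.51 in the 6 libraries and -0.72, -0.76, -0.72 and -1.38 in all 8. Of the 4 macrophage genes with a higher splenic mean, Cd68 was the one at an unadjusted p under 0.05, 9.51, 7.58, 53.9 and 75.5 against 15.9, 17.6, 5.63 and 9.41 CPM, high in splenic replicates 3 and 4.

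Of the 10 fibro-adipogenic progenitor markers, Pi16, a marker of adventitial fibroblasts, was lower at an unadjusted p under 0.05, 58.7, 40.5, 15.3 and 28.5 against 90.8, 44.8, 61.2 and 96.9 CPM (-1.04, adjusted p = 0.346), and 3 were called lower in the 6 libraries (background 2.76%). Collagen and matrix genes changed sign with the libraries kept: the median of 32 was 0.20 with all 8 and -0.41 in the 6. Col6a3, a microfibrillar collagen chain, measured 48.4, 7.8, 4.37 and 4.35 against 13.9, 7.59, 28.5 and 11 CPM, next to 117, 134, 102 and 108 CPM in control, and splenic replicate 1 was the highest tumour library. Timp2, a metalloproteinase inhibitor, measured 190.1, 55, 45.9 and 56.3 against 110.4, 58.3, 83.1 and 107 CPM in the same pattern.

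Several lists held 0 genes at an unadjusted p under 0.05 between the routes, which does not exclude a difference. None of 76 cytosolic ribosomal protein genes, 25 ribosome biogenesis genes and 20 genes of the endoplasmic reticulum stress response reached an unadjusted p under 0.05, with medians of -0.02, -0.03 and -0.05. For 74 of the 76, 24 of the 25 and 17 of the 20 the 8-library interval lay within 2-fold. The same was so for all 36 complex I genes, of which 35 were called higher in the 6 libraries. The 15 genes of MHC class I presentation and the 19 clock genes also had 0, with intervals within 2-fold for 13 and 7 of them. For most clock genes a difference above 2-fold was thus not bounded. In the amino acid stress list, Mthfd2, a mitochondrial one-carbon enzyme, was lower, 1.15, 1.59, 2.21 and 1.63 against 3.95, 3.21, 2.07 and 3.11 CPM, with only subcutaneous replicate 3 in the splenic range (-0.92, adjusted p = 0.192).

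**Figure D5:**
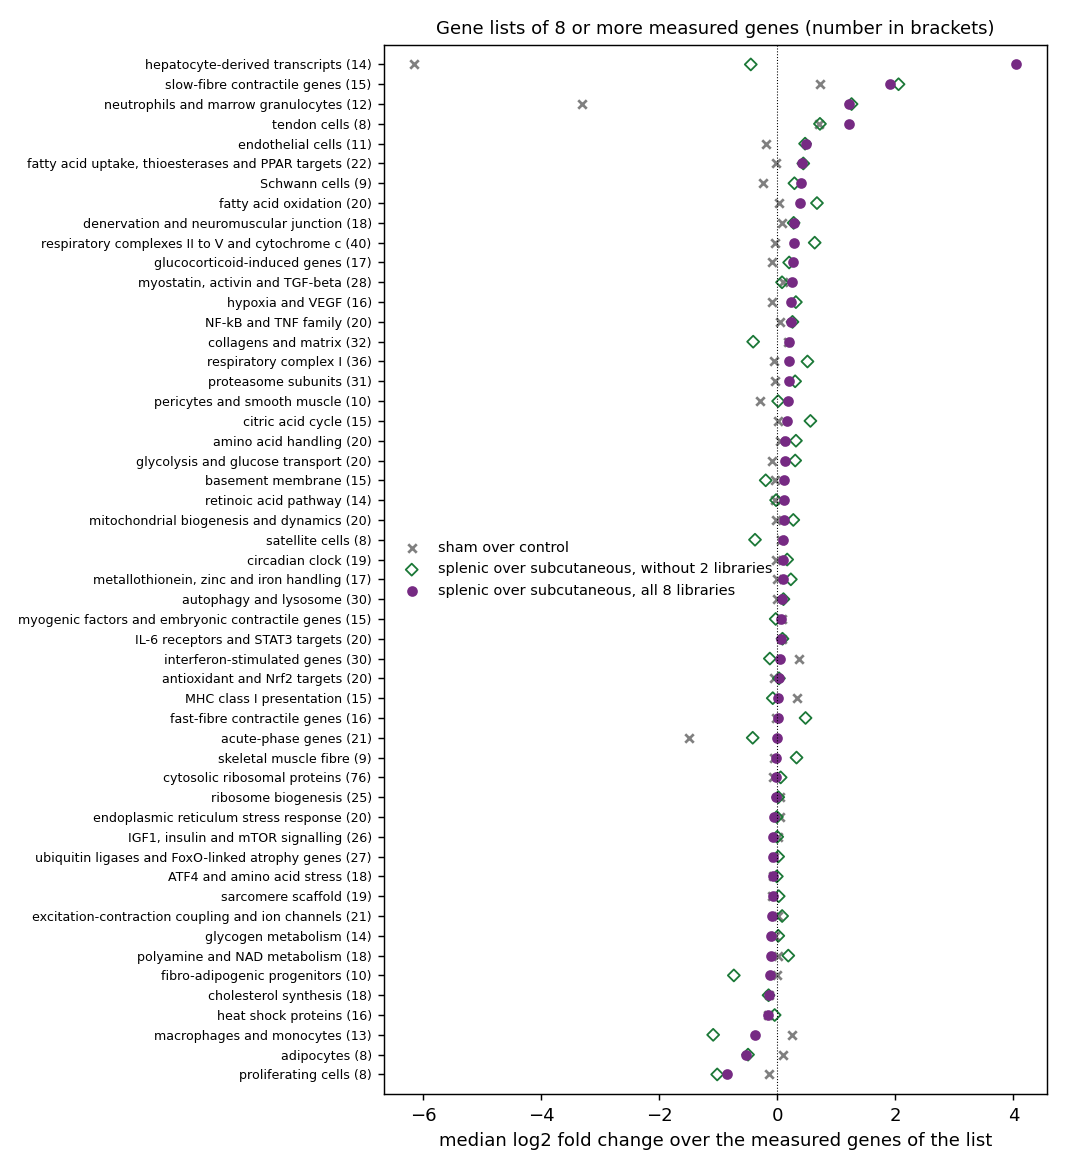
Median log2 fold change (horizontal axis) over the measured genes of each list of 8 or more genes (vertical axis, number of genes in brackets). Filled circles are splenic over subcutaneous C26 with all 8 libraries, open diamonds the same without splenic replicate 1 and subcutaneous replicate 3, and crosses sham over control; the slow-fibre list stands at 1.91 and 2.05, and the hepatocyte list moves from 4.05 to -0.45 between the first and the second.

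The tumour-free pair, which carries the same prefixes as the tumour groups, differed in 1 gene by edgeR. Cyp26b1, an enzyme that breaks down retinoic acid, measured 2.43, 2.99, 2.54 and 1.75 CPM in sham and 11.5, 36.4, 19.8 and 14.2 CPM in control (log2 fold change, sham over control, -3.07, adjusted p = 0.0138), 1 of 13320 genes (0.00751%), and at an unadjusted p under 0.05 there were 101 higher (0.758%) and 184 lower (1.38%) in sham. These counts use the spread shared with the more variable tumour groups. Fitted on the sham and control libraries alone, edgeR called 0 of 13170 genes. In that fit 930 were at an unadjusted p under 0.05, 463 higher and 467 lower in sham. For Cyp26b1, the splenic libraries measured 4.56, 2.49, 2.44 and 2.41 CPM and the subcutaneous ones 1.34, 2.127, 1.53 and 3.78 CPM, a log2 fold change of 0.45 (95% interval -0.38 to 1.27). Leaving out any 1 of the 4 sham libraries ended the call (smallest adjusted p of any gene from 0.0758 to 0.130), and leaving out control replicate 1 gave 7 calls and control replicate 3 gave 4. Both of these sets held Cyp26b1, Hpd, Slco1b2 and Arg1, all lower in sham. The 14 hepatocyte-derived transcripts had a median of -6.15 for sham over control, with 0 called.

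Whether the tumour effect itself differed between the arms was tested as (splenic - sham) - (subcutaneous - control), which takes the difference between the tumour-free groups into account. No gene passed (0 of 13320, 0%, edgeR; 851 at an unadjusted p under 0.05, 6.39%); limma-voom and limma-trend also called 0, and DESeq2 called 86. Of the 14 hepatocyte-derived transcripts, 12 were higher at an unadjusted p under 0.05 in this contrast, beside 539 of 13320 genes. Their median was 10.27, with 0 called, and this includes their higher level in control than in sham. The 2 smallest adjusted p, both 0.0670, belonged to Cyp26b1 and Kcnj8. For Kcnj8, sham measured 9.8, 11.4, 8.52 and 7.1 CPM and control 14.7, 14.3, 15 and 14.8 CPM, so that control exceeded subcutaneous C26 in every library while sham and splenic C26 overlapped, and the difference of the effects was 1.65 on the log2 scale. Among the named genes, Trp53i11 (2.995), Cldn5 (2.37) and Egfl7 (0.95) had adjusted p of 0.111, 0.107 and 0.0983. Leaving out splenic replicate 2 gave 66 calls, splenic replicate 1 gave 9, control replicate 1 and subcutaneous replicate 3 gave 4 each, splenic replicate 4 and subcutaneous replicate 4 gave 1 each, and without any of the other 10 libraries there were 0.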

How the data were processed

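RNA from frozen quadriceps was sequenced as 75-base paired reads, per the labels' protocols, in 16 libraries of 4 groups. The submitters' processing notes name FastQC, STAR, edgeR and the mm10 build, and the labels name featureCounts; no source used here gives their versions, the annotation or the strand setting, and overlapping, antisense and near-identical genes may share reads. The authors deposited read counts per gene, and a second table of log2 normalized values; apart from 1 constant per gene and 1 per library these departed from log2 CPM by an SD of 0.00316 over 9543 genes, and they served 1 alternative. In the count table, 4013 lines without a gene name were left out, and 13320 genes remained, of which edgeR's expression filter removed 0.

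Counts were tested with edgeR 4.0.16 (quasi-likelihood, TMM scaling, robust, 1 mean per group, all 16 libraries, Benjamini-Hochberg adjustment, threshold 0.05) in R 4.3.3; adjusted p without another tool's name are from this fit. Splenic was set directly against subcutaneous C26, sham against control, and the 2 tumour effects against each other. Alternatives were RLE and upper-quartile scaling, no filter, at least 1 CPM in 4 libraries, DESeq2 1.42.0, limma 3.58.1 (voom on counts, trend on the deposited log2 values), only the groups compared, omission of the 10 most abundant genes, of each library in turn, of 2 libraries (splenic replicate 1, subcutaneous replicate 3) and of 3. DESeq2 without the 2 libraries, and the tumour groups alone without them, were added after seeing the data. The script was tested on simulated counts. Replicate numbers are names in accession order. Libraries of 1 group differed by more than counting noise (smallest chi-square per degree of freedom 12.9).

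The genes and the 56 gene lists were chosen with earlier results of these data known, and so was the omission of the 2 libraries. The rule for named genes took up to 10 passing genes with the largest fold changes in each direction and the 10 with the smallest p, 3 per list with called members, 12 fixed genes, and, where fewer than 5 passed in a direction, the 5 with the smallest p. Since 0 passed, it gave 22 genes; the other 50 named genes tested under every alternative, and the list members named beside them, were chosen after their values were seen. Gene positions are from GENCODE M21 (mm10), which held 12868 of the 13320 symbols (96.6%). Values under 1 CPM rest on few counts.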

Additional observations from a re-analysis of the deposited data

Results flagged for a closer look

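In each tumour group the highest or lowest of the 4 libraries was tested against the others for the named genes and the lists. In 34 of 252 tests that library stood apart by more than Dixon's 95% critical value for 4 samples, which chance gives in about 1 in 20. The count cannot be read against that rate, since 50 of the 72 genes were chosen after their values were seen, many from the fit without splenic replicate 1 and subcutaneous replicate 3.

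Subcutaneous replicate 3 gave 19 of these values. It was low for Il6ra, at 52.8 CPM (142 to 151 in the other 3), for Mt2, at 190.3 CPM (988 to 1085 in the other 3), for Fkbp5, at 273 CPM (444 to 483 in the other 3), and for Gdf5, at 0.248 CPM (0.593 to 0.605 in the other 3). It was high for Nmrk2, at 49.8 CPM (1.91 to 2.83 in the other 3), for Irs1, at 133 CPM (43.27 to 47.5 in the other 3), and for Cldn5, at 11.3 CPM (5.05 to 5.15 in the other 3). The same library was high for metabolic genes: Ndufb9 at 260.1 CPM (129 to 136 in the other 3), Ndufv1 at 326 CPM (148 to 169.5 in the other 3), Acads at 85.2 CPM (36.6 to 40.3 in the other 3) and Ldhb at 88.1 CPM (28.6 to 33.6 in the other 3). Among lists, in mean log2 CPM over the tumour-free mean with the range of the other 3 libraries in brackets, it was low for glucocorticoid-induced genes, 1.48 (2.61 to 2.71), and cytosolic ribosomal proteins, 0.43 (0.76 to 0.82). It was high for complex I, 0.0179 (-0.95 to -0.83), for complexes II to V and cytochrome c, -0.00012 (-1.02 to -0.89), and for fatty acid oxidation, 0.35 (-0.29 to -0.19). Further high values were those of calcium handling and channels, -0.0400 (-0.68 to -0.66), of myogenic factors, 0.0955 (-0.66 to -0.59), and of polyamine and NAD metabolism, 0.0569 (-0.39 to -0.32).

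Splenic replicate 1 was low for Idh3b, at 289 CPM (392 to 412 in the other 3), for Eci2, at 87.3 CPM (161 to 178 in the other 3), and for Acot1, at 9.67 CPM (39.5 to 49.3 in the other 3). It was high for Timp2, at 190.1 CPM (45.9 to 56.3 in the other 3), for Cyp26b1, at 4.56 CPM (2.41 to 2.49 in the other 3), for hepatocyte-derived transcripts, 2.75 (-2.23 to -2.06), and for collagens and matrix, -0.32 (-1.81 to -1.60). Splenic replicate 3 was high for Ppargc1a, at 638 CPM (47.7 to 59.9 in the other 3), and splenic replicate 4 low for calcium handling and channels, -1.08 (-0.43 to -0.34).

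The remaining subcutaneous libraries gave 6 values. Replicate 2 was low for Pecam1, at 53.1 CPM (68.7 to 71.3 in the other 3), for endothelial cells, -0.50 (-0.16 to -0.13), and for interferon-stimulated genes, -1.33 (-0.91 to -0.85). Replicate 4 was low for slow-fibre genes, -2.84 (-1.29 to -1.03), and high for antioxidant genes, 0.75 (0.58 to 0.59), and replicate 1 was high for Schwann cells, -0.73 (-1.23 to -1.16).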

How the results depend on the processing

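No paired analysis was possible because the replicate numbers are names given in accession order and tie no splenic library to a subcutaneous one. The count of genes called between splenic and subcutaneous C26 stayed at 0 with RLE and upper-quartile scaling, without a filter, with at least 1 CPM in 4 libraries, with limma-voom and limma-trend, with only the 8 tumour libraries and without the 10 most abundant genes. It was 163 with DESeq2, 958 without splenic replicate 1 and subcutaneous replicate 3 (1753 with DESeq2, 2 with only the tumour groups), and 6 without splenic replicates 1 and 3 and subcutaneous replicate 4. Leaving out 1 library gave 0 to 307 (307 without splenic replicate 1, 244 without subcutaneous replicate 3, 115 without splenic replicate 2, 2 without splenic replicate 4). For sham against control, the 1 call became 58 with DESeq2, 7 with limma-trend and 0 with only those groups, and 0 to 7 on leaving out 1 library. For the difference of tumour effects, 0 became 86 with DESeq2, 257 without the first pair of libraries (969 with DESeq2), 3 without the 3 libraries, and 0 to 66 on leaving out 1. The cause of these shifts was not tested.

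Over 72 named genes, 44 of 1509 recomputed log2 fold changes turned direction and 206 passed the threshold that the 16-library test did not. Many of these genes were chosen after their values were seen, from the fit without splenic replicate 1 and subcutaneous replicate 3. For them, passing in that fit was fixed by the choice, so the 206 is only a description and does not measure sensitivity to the processing. Limma-voom and limma-trend gave -0.00866 and -0.017 for Mstn, -0.034 and -0.054 for Ppargc1a and -0.43 and -0.54 for Col6a3, and upper-quartile scaling gave 0.033 for Timp2. Without the 2 libraries, with only the tumour groups among them, and with DESeq2 among them, the values were -0.043, -0.046 and -0.025 for Il6ra, -1.54, -1.48 and -1.401 for Alb, 1.20, 1.22 and 1.26 for Nmrk2, and -0.967, -0.975 and -0.948 for Col6a3. Without the 3 libraries they were 0.27 for Fbxo32, -0.047 for Mstn, -0.66 for Ppargc1a, -3.59 for Alb, -0.21 for Odf3l2 and -1.401 for Col6a3. On leaving out 1, 2 or 3 libraries in edgeR, values ran from -0.45 to 0.27 for Fbxo32, -0.026 to 0.67 for Trim63, -0.22 to 0.22 for Il6ra, -0.15 to 0.31 for Mstn, -1.07 to 1.27 for Ppargc1a, -3.59 to 5.33 for Alb, -3.19 to 1.24 for Nmrk2, -0.21 to 5.39 for Odf3l2, -1.42 to 0.59 for Col6a3, -0.81 to 0.165 for Timp2 and -1.32 to 0.082 for Dpp4. With the spread of the tumour groups alone, the 95% interval stayed within 2-fold for 64.9% of genes.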
